A study of Mus musculus with 33 samples.

Results

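The DLX1-only sites were 2670 stretches of the mouse genome at which the deposited DLX1 peak list of e13.5 ganglionic eminence held a peak and the DLX2 and DLX5 lists of the same age did not. They were 2670 of the 8459 DLX1 peaks at e13.5 on chromosomes 1 to 19 and X, with identical intervals counted once. The members were selected on measured values, by the rule that a DLX1 peak overlapped no DLX2 peak and no DLX5 peak by 1 bp or more. The other 5789 DLX1 peaks are called shared here, and comprised 3576 that overlapped a DLX2 peak alone, 92 that overlapped a DLX5 peak alone and 2121 that overlapped both.

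DLX1, DLX2 and DLX5 are homeodomain transcription factors of the distal-less family, which bind AT-rich DNA motifs that the family members largely have in common. In the embryonic ventral forebrain they act in the ganglionic eminences, where DLX1 and DLX2 come on in progenitors and DLX5 somewhat later in differentiating cells, and mice without Dlx1 and Dlx2 make too few migrating GABAergic interneurons. Histone marks describe the state of chromatin. H3K27ac marks active promoters and enhancers, H3K4me1 marks mainly enhancers, H3K4me3 marks mainly promoters, and H3K27me3 is laid down by the Polycomb complex at silenced genes. H3K4me3 and H3K27me3 together are typical of promoters of developmental genes that are poised or silent in some of the cells of a tissue.

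The tissue was the progenitor and mantle zones of the lateral, medial and caudal ganglionic eminences of CD1 mice. Histone ChIP was made on unfixed nuclei of Dlx1/2-/- (KO) and wild-type (WT) embryos at e13.5 after digestion with micrococcal nuclease, with 1 library per mark and genotype. DLX ChIP used fixed, sonicated chromatin of WT embryos of 3 ages (e11.5, e13.5, e16.5), with rabbit antibodies made by the submitters' laboratory and 1 library per factor and age. No DLX ChIP of KO tissue was analysed here, so none of the lists shows what each antibody recovers without its target. Which exons the KO lacks and how many embryos went into a ChIP library are not known here, and the protocol text names e13.5 embryos although the labels also give e11.5 and e16.5. At e13.5 each DLX factor had its own input, while at each other age the 3 factors shared 1 input.

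With 1 library per condition there is no replicate error for any ChIP value and no test was made. Intervals on shares are exact 95% Clopper-Pearson intervals, and they cover counting error only. Fold enrichment is the ratio of ChIP signal to input at a peak, and −log10 q is the strength of the evidence for the peak, both as the authors' peak caller gave them. The files do not give the depth of these libraries, and deeper libraries yield longer peak lists. From the youngest age to the oldest, the DLX1 lists held 4337, 8459 and 16817 peaks, the DLX2 lists 8341, 17126 and 32610, and the DLX5 lists 11361, 2951 and 27370. Absence from a list therefore says that no peak was called at that depth, and the DLX5 list of e13.5, which helped to choose the members, was the shortest of the 9.

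RNA-seq of e13.5 eminences, with 4 libraries per genotype of 14.4 to 117 M counted reads, gave the levels of the genes for the 3 factors. Dlx1 stood at 21.3, 22.6, 24.2 and 26.3 CPM (counts scaled to a common library total) in the KO libraries, against 117, 121, 129 and 126 CPM in the WT libraries. Dlx2 averaged 1.28 ± 0.278 CPM in KO and 21.1 ± 5.84 CPM in WT (SD, n = 4 each). Dlx5 averaged 0.521 ± 0.172 CPM in KO and 5.31 ± 0.905 CPM in WT (SD, n = 4 each). For each of the 3 genes the KO libraries lay below all WT libraries, and Dlx1 RNA was not at 0 in KO. A set of 9 eminence markers, among them Dlx1, Gad1 and Gad2, summed to 169 to 216 CPM in KO and 461 to 493 CPM in WT. The 4 cortical markers Tbr1, Eomes, Neurod6 and Emx1 were also present, with sums of 325 to 477 CPM in KO and 282 to 389 CPM in WT, and the 2 embryonic globin genes summed to 1391 to 2030 CPM in KO and 1644 to 1886 CPM in WT. Vessel markers summed to 53.8 to 75.6 CPM in KO and 57.2 to 85.5 CPM in WT, and meningeal and mesenchymal markers to 4.5 to 6.86 CPM in KO and 5.5 to 7.13 CPM in WT. The part of such other cells in any ChIP value was not tested.

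Most DLX1-only sites were modest peaks. Their DLX1 fold enrichment had a median of 5.25 and ranged from 3.15 to 62.1, with quartiles of 4.41 and 6.3. The shared peaks had the same median, 5.25, and reached 72.6. Split by partner, the median was 4.83 at peaks shared with DLX2 alone, 4.62 at peaks shared with DLX5 alone and 6.72 at peaks shared with both. The DLX1-only median was thus not below that of peaks shared with DLX2 alone. With all DLX1 peaks cut into 4 classes at the quartiles of −log10 q, they made up 30.7% of the weakest class, 35.9% and 38.3% of the next, and 22.1% of the strongest.

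The shape of the peaks differed more than their height. DLX1-only sites had a median width of 234 bp, with 9 in 10 at or below 304 bp. The median was 292 bp at shared peaks, 265 bp at peaks shared with DLX2 alone and 369 bp at peaks shared with both other factors. A wider peak can more easily overlap a partner peak, and the part of the rule in this contrast was not tested. The peak caller gave more than 1 summit at 13 DLX1-only sites (0.487%), against 335 shared peaks (5.79%). These were 84 of the peaks shared with DLX2 alone (2.35%), 6 of those shared with DLX5 alone (6.52%) and 245 of those shared with both (11.6%). Many members were tied: 2648 of 2670 (99.2%) had exactly the same fold and −log10 q as another member, and the 2670 sites held 69 distinct pairs of these values, the most frequent at 188 sites. Differences of 1 step in fold between members are therefore the smallest the file can show.

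**Figure D1:**
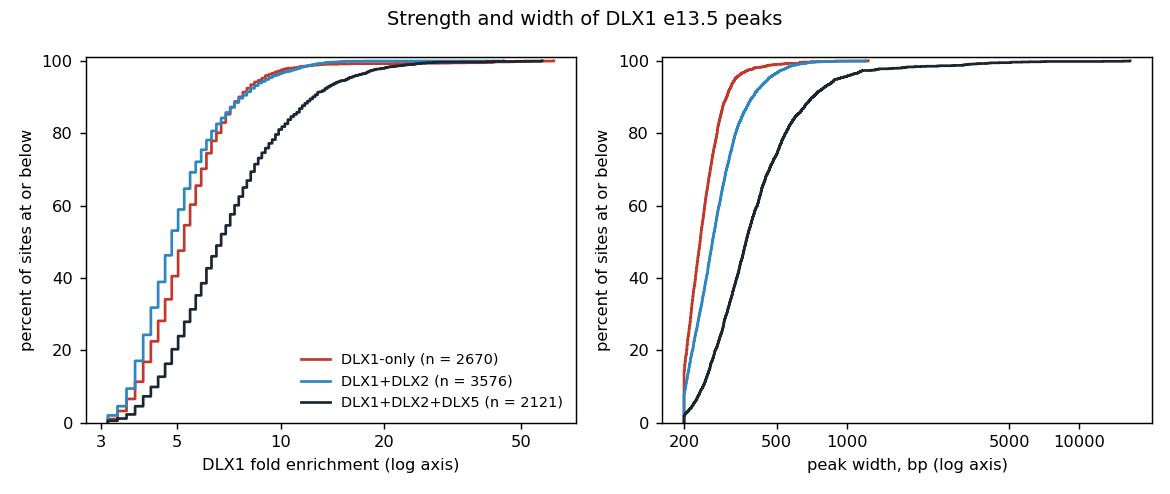
Cumulative share of DLX1 e13.5 peaks (vertical axis, percent) at or below a given DLX1 fold enrichment over input (left, log axis) and peak width in bp (right, log axis), for DLX1-only sites and for peaks that overlap a DLX2 peak or both a DLX2 and a DLX5 peak. In fold the DLX1-only curve lies close to that of peaks shared with DLX2 alone (medians 5.25 and 4.83), while in width it lies to the left of both other curves (median 234 bp).

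Few members missed a partner narrowly. The nearest DLX2 or DLX5 peak of e13.5 was at a median distance of 56908 bp, 437 members (16.4%) had one within 10000 bp, and 77 (2.88%) had one within 500 bp. Just inside the rule's limit, 16 members lay within 100 bp of a DLX2 or DLX5 peak and had a median DLX1 fold of 4.3. Just outside it, 55 shared peaks overlapped a partner by at most 100 bp and had a median fold of 3.78. The nearest shared DLX1 peak was at a median of 162165 bp, and 174 members (6.52%) had one within 10000 bp. Members formed 45.8% of the DLX1 peaks on chromosome X (54 of 118) and 40.5% of those on chromosome 15 (123 of 304), against 25.3% on chromosome 2 (190 of 752), the lowest share of any chromosome.

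Most members were seen once. Of the 2670 sites, 1522 (57.0%, interval 55.1 to 58.9%) overlapped no peak in any of the 6 DLX lists of e11.5 and e16.5. Among shared peaks this held for 267 (4.61%), and among all DLX1 e13.5 peaks for 21.1%. At the other end 41 members (1.54%) were in all 6 other lists, against 1519 shared peaks (26.2%). Shared peaks were chosen for a DLX2 or DLX5 peak at e13.5, so their shares in the DLX2 and DLX5 lists of other ages are not a neutral yardstick.

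DLX1 itself was found again at 935 members at e16.5 (35.0%, interval 33.2 to 36.9%), against 86.1% of shared peaks and 70.0% of all DLX1 e13.5 peaks. At e11.5 it was found at 276 members (10.3%, interval 9.21 to 11.6%), against 35.8% of shared peaks and 27.7% of all DLX1 peaks. Both other ages had a DLX1 peak at 260 members (9.74%), against 34.4% of shared peaks. Of the 276 members with a DLX1 peak at e11.5, 260 thus also had one at e16.5.

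The partner factors appeared at some members at another age. DLX2 was listed at 112 members at e11.5 (4.19%, all DLX1 peaks 47.1%) and at 654 members at e16.5 (24.5%, all DLX1 peaks 69.7%). DLX5 was listed at 313 members at e11.5 (11.7%, all DLX1 peaks 37.0%) and at 689 members at e16.5 (25.8%, all DLX1 peaks 66.5%). In total 853 members (31.9%) held a DLX2 or DLX5 peak at e11.5 or e16.5, against 92.6% of shared peaks. At e11.5 DLX5, with the longer list, was thus found at more members than DLX2, while shared peaks had the opposite order, with 48.6% for DLX5 and 67.0% for DLX2.

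The e16.5 peaks of all 3 factors had lower typical folds at members than at shared peaks. The DLX2 e16.5 peaks had quartiles of 4.24 and 6.54 in fold at members, with a median of 4.95 and a highest value of 15, against quartiles of 7.42 and 17.3 and a highest value of 64.7 at shared peaks. The DLX5 e16.5 peaks had a median of 4.59 and a highest of 23.7 at members, against 6.8 and 56.6 at shared peaks. The DLX1 e16.5 peaks had a median of 4.86 and a highest of 62.5 at members, against 6.08 and 64.0 at shared peaks.

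**Figure D2:**
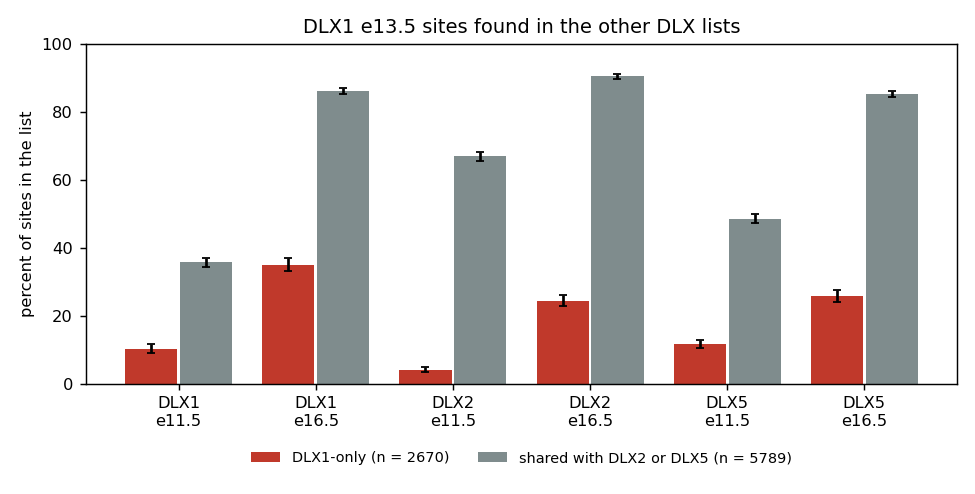
Percent of sites that overlap a peak of each of the 6 DLX lists of e11.5 and e16.5 by 1 bp or more, for DLX1-only sites (left bar of each pair) and shared DLX1 e13.5 peaks (right bar). Error bars are exact 95% intervals for counting error. In each list the share of DLX1-only sites is below that of shared peaks, from 4.19% in DLX2 e11.5 to 35.0% in DLX1 e16.5.

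Where DLX1 was found again at a member, a partner was often listed with it, and the same shares over all DLX1 e13.5 peaks stand beside each count. Of the 935 members with a DLX1 peak at e16.5, 607 (64.9%) also held a DLX2 or DLX5 peak at e16.5 and 328 (35.1%) did not. The share with a partner was 91.6% over all DLX1 peaks found again at e16.5. Of the 276 members with a DLX1 peak at e11.5, 200 (72.5%) held a DLX2 or DLX5 peak at e11.5 and 76 did not, and over all DLX1 peaks the share was 94.7%. All 3 factors were listed at e16.5 at 428 members (16%), against 58.4% of all DLX1 peaks. A further 201 members (7.53%) held DLX2 or DLX5 but not DLX1 at e16.5, against 8.64% of all DLX1 peaks. DLX1 alone was found at e11.5 or e16.5, with no DLX2 or DLX5 peak at either age, at 295 members (11%) and 159 shared peaks (2.75%). A DLX1 peak at all 3 ages with no DLX2 or DLX5 peak at any age was found at 14 of the 260 members with DLX1 at every age.

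For scale, the DLX2 list of e13.5 held 11138 peaks that overlapped no DLX1 and no DLX5 peak. Their median fold was 5.33, close to that of the DLX1-only sites, but 1312 of them (11.8%) were in none of the 6 lists of the other ages and 80.9% were in the DLX2 list of e16.5. The DLX2 list of e16.5 is the longest of the 9, and its length bears on that share.

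How often a member was found again did not follow its strength in 1 direction. The bins of strength used here were chosen after the values had been seen. Among the 176 members with a −log10 q up to 3, 56.8% had a DLX1 peak at e16.5. The share was 31.4% of 669 members between 5 and 8, and 21.1% of 527 members between 10 and 15. It was 52.6% of 137 members between 20 and 30, 90% of 40 members between 30 and 50, and 100% of the 24 members above 50. The intermediate members were thus found least often. Shared peaks ran from 75.9% in the lowest bin to 100% in the highest, and no bin of them fell below 75.9%.

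Partner peaks and histone marks were also frequent at the weakest members, but stayed rare from a −log10 q of 10 to 30. Of the 176 weakest, 62.5% held a DLX2 and 63.1% a DLX5 peak at e16.5, and 70.5% lay under a WT histone mark as defined below. Of the 527 between 10 and 15, 5.31% held DLX2, 6.64% held DLX5 at e16.5 and 9.3% lay under a WT mark. Of the 192 between 15 and 20, 4.69% held DLX2, 6.77% held DLX5 and 9.38% lay under a WT mark. Of the 137 between 20 and 30, 10.2% held DLX2, 9.49% held DLX5 and 8.76% lay under a WT mark. Of the 40 between 30 and 50, 36 held DLX1 at e16.5 but 3 held it at e11.5 and 7 lay under a WT mark. Most members between 30 and 50 were thus unmarked and listed for DLX1 at the 2 later ages only.

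**Figure D3:**
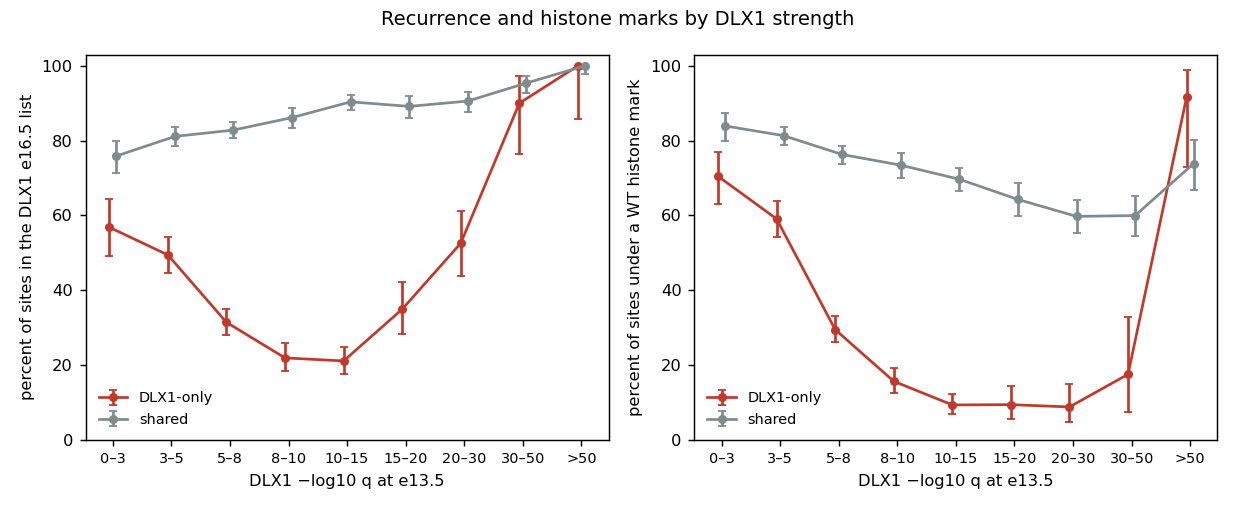
Percent of sites with a DLX1 e16.5 peak (left) and under at least 1 of 4 WT histone marks (right) by bin of DLX1 −log10 q at e13.5, for DLX1-only sites and shared peaks, with exact 95% intervals for counting error. The DLX1-only share with DLX1 at e16.5 is lowest in the bin from 10 to 15 (21.1%), the marked share is lowest in the bin from 20 to 30 (8.76%), and above 50, with 24 sites, they are 100% and 91.7%.

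Most of the strongest DLX1-only sites were strong in every DLX1 list. The 24 members with a −log10 q above 50 had DLX1 folds of 14.5 to 62.1 at e13.5, with a median of 39.6. At e11.5, 22 of them had a DLX1 peak, with folds of 14.6 to 70.5 and a median of 42.8. At e16.5 all 24 had one, with folds of 5.55 to 62.5 and a median of 37.1. The 2 sites without a DLX1 peak at e11.5 had e16.5 folds of 5.55 and 6.6 and no listed peak of any of the 4 histone marks in either genotype. At the 22 sites listed at each age the highest fold of the 3 ages was 1.01 to 1.82 times the lowest, with a median of 1.16. At the 134 shared peaks above 50 that were listed at each age this ratio ran from 1.02 to 5.9, with a median of 1.83.

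DLX2 and DLX5 at these 24 sites stayed far below DLX1. One site held a DLX2 peak at e11.5, with a fold of 3.54, and 11 held one at e16.5, with folds of 3.71 to 7.95. DLX5 peaks were listed at 15 sites at e11.5, with folds of 3.8 to 8.56, and at 21 sites at e16.5, with folds of 2.94 to 7.53. Of the 176 shared peaks above 50, 128 held a DLX2 peak at e11.5, with a median fold of 17.9. At e16.5, 164 of them held a DLX2 peak, with a median of 27.9. DLX5 was listed at 136 of them at e11.5, with a median fold of 9.99, and at 169 at e16.5, with a median of 18.2. Shared peaks were chosen for a DLX2 or DLX5 peak at e13.5, so they are not a neutral yardstick here. The e13.5 absence of both partners from the 24 sites is the rule itself and is no finding.

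**Figure D4:**
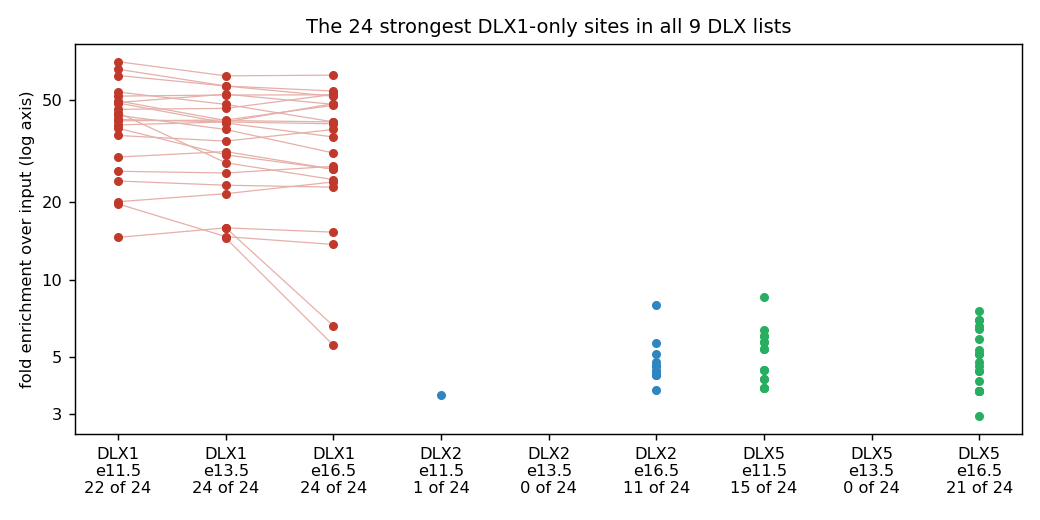
Fold enrichment over input (log axis) of the strongest peak of each of the 9 DLX lists that overlaps each of the 24 DLX1-only sites with a −log10 q above 50. Points are sites, lines join the same site across the DLX1 lists, and the count under each list is the number of the 24 with a peak in it. DLX1 folds lie between 14.5 and 62.1 at e13.5, and no DLX2 or DLX5 fold exceeds 8.56.

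These sites also shared a histone mark that the rule did not use. H3K4me3 covered the same 22 sites in both genotypes, and these were the 22 with DLX1 at all 3 ages, while 76 of the 176 shared peaks above 50 had H3K4me3 in both genotypes. The H3K4me3 folds at the 22 sites ran from 6.89 to 19.3 in KO, with a median of 14.8, and from 6.48 to 17.7 in WT, with a median of 12.7. On the log2 scale the KO over WT ratio of that fold ran from −0.22 to 0.33, with a median of 0.10, and was above 0 at 16 of the 22 sites. H3K27ac covered 14 of the 24 in KO and 18 in WT, and H3K27me3 7 in KO and 11 in WT.

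The 5 strongest members outside chromosome 18 are given by their mm9 coordinates, since no mm9 annotation was used here to say which genes they lie in or near. The first, chr2:164704247-164705486, is the widest DLX1-only site, 1240 bp long with 2 summits. Its DLX1 fold was 70.5, 62.1 and 62.5 in order of age, while DLX2 had 4.6 at e16.5 and DLX5 6.34 at e11.5 and 5.14 at e16.5. Its H3K4me3 fold was 15.1 in KO and 13.7 in WT, and its H3K27ac fold was 3.73 in KO and 6.87 in WT. DLX1 was thus of similar height at each age at a site that carried the promoter mark in both genotypes.

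The next 4 were of the same kind. In order of age, the DLX1 fold at chr4:115747449-115748196 was 65.9, 56.7 and 51.7, and its H3K4me3 fold was 17.4 in KO and 15.2 in WT. At chr8:72425374-72426006 the DLX1 fold was 62.3, 56.7 and 54.2 at the 3 ages, and the H3K4me3 fold was 12.4 in KO and 12.4 in WT. This site lies 1061 bp from the nearest DLX2 or DLX5 peak of e13.5, the closest of the 5. At chr17:25910505-25910963 the DLX1 fold was 48.9, 52.7 and 48.1, and the H3K4me3 fold was 10.5 in KO and 12.2 in WT. At chr19:46672907-46673609 the DLX1 fold was 51.8, 52.3 and 52.4, and the H3K4me3 fold was 11.8 in KO and 12.7 in WT.

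Among the 41 members found in all 6 other lists, the strongest outside chromosome 18 differed in kind. At chr11:98724567-98725006 the DLX1 fold was 14.6, 15.9 and 15.3 at the 3 ages, no DLX2 or DLX5 fold was over 6.02, and the H3K4me3 fold was 18.2 in KO and 17.0 in WT. At chr7:38963222-38964107 the DLX1 fold was 5.51, 6.93 and 9.03, the DLX5 fold was 4.75 at e11.5 and 23.5 at e16.5, and the DLX2 fold was 5.42 at e11.5 and 7.95 at e16.5. This site is 1649 bp from the nearest DLX2 or DLX5 peak of e13.5 and had no H3K4me3 peak in KO and a WT fold of 1.7. At chr13:46823303-46823593 the DLX1 fold was 7.67, 6.3 and 12.2, and the H3K4me3 fold was 15.5 in KO and 13.8 in WT.

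Most DLX1-only sites carried none of the 4 histone marks. A site is called marked where it overlapped a histone peak with a −log10 q of at least 5. At least 1 mark was present at 793 members in KO (29.7%, interval 28.0 to 31.5%) and at 755 in WT (28.3%, interval 26.6 to 30%). Of all DLX1 e13.5 peaks 57.9% were marked in KO and 58.7% in WT, and of shared peaks 70.9% in KO and 72.8% in WT. Of the DLX2-only peaks 78.2% were marked in KO and 79.2% in WT. With any listed histone peak counted, however weak, the members came to 50.3% in KO and 47.9% in WT, and 1204 members (45.1%) had no listed histone peak in either genotype.

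The enhancer mark showed the largest gap between the classes. H3K4me1 was present at 497 members in KO (18.6%, all DLX1 peaks 47.7%) and 432 in WT (16.2%, all DLX1 peaks 47.6%), against 61.1% and 62.1% of shared peaks in KO and WT. H3K4me3 was present at 586 members in KO (21.9%, all DLX1 peaks 33.5%) and 577 in WT (21.6%, all DLX1 peaks 35.4%). H3K27ac was present at 430 members in KO (16.1%, all DLX1 peaks 20.7%) and 448 in WT (16.8%, all DLX1 peaks 21.1%). H3K27me3 was present at 288 members in KO (10.8%, all DLX1 peaks 13.8%) and 313 in WT (11.7%, all DLX1 peaks 14.0%). At this limit H3K4me3 was thus the members' most frequent mark in each genotype, while among shared peaks H3K4me1 was. The members' order depended on the limit. With all listed histone peaks counted, H3K27ac came first, at 37.3% in KO and 34.9% in WT. H3K4me1 then stood at 31.8% and 31.1%, and H3K4me3 at 29.6% and 29%. Among members with a DLX1 −log10 q of at least 5, H3K4me3 was at 13% and H3K4me1 at 12.9% in KO.

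**Figure D5:**
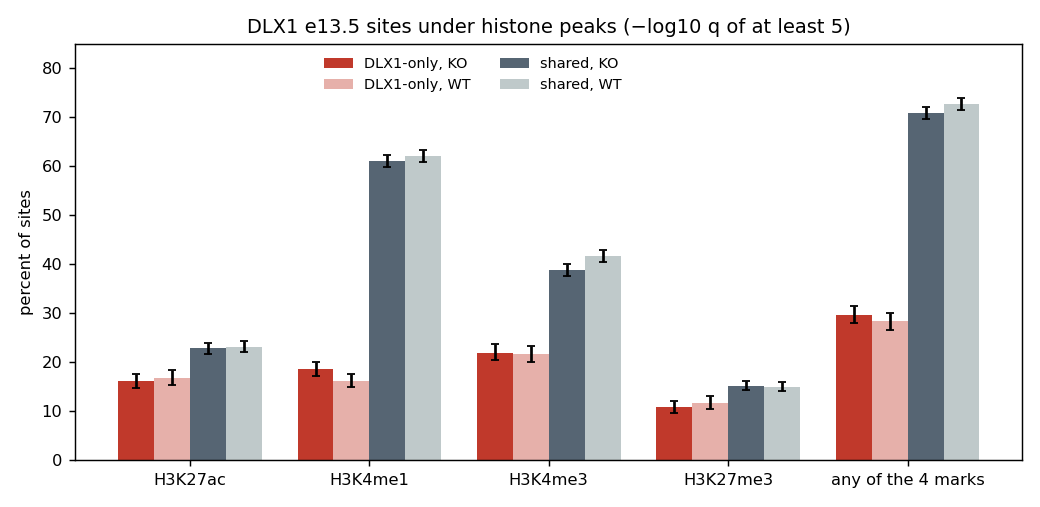
Percent of marked sites (histone peak with −log10 q not below 5), per mark and for any of the 4, in DLX1-only sites and shared DLX1 e13.5 peaks, KO left of WT in each pair. Error bars are exact 95% intervals for counting error. The KO and WT bars of DLX1-only sites lie close together for each mark, and H3K4me1 differs most between the classes (18.6% and 61.1% in KO).

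The marks of members mostly occurred in combinations, and H3K4me3 was part of them at 586 of the 793 marked members in KO and 577 of the 755 in WT. Of the marked shared peaks, 2247 of 4106 had H3K4me3 in KO and 2416 of 4214 in WT. H3K27ac with H3K4me3 and H3K27me3 was the members' most frequent combination of several marks. It was at 118 members in KO (4.42%, shared peaks 3.54%) and 143 in WT (5.36%, shared peaks 4.65%). H3K4me1 alone was at 154 members in KO (5.77%, shared peaks 27.6%) and 134 in WT (5.02%, shared peaks 27.6%). H3K4me3 with H3K27ac and H3K4me1 was at 115 in KO (4.31%, shared peaks 9.48%) and 104 in WT (3.9%, shared peaks 9.4%). All 4 marks together were at 91 in KO (3.41%, shared peaks 4.85%) and 95 in WT (3.56%, shared peaks 4.54%). The ChIP was made on whole eminences, and whether marks found at the same site lay in the same cells was not tested.

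The combination of marks was the same in both genotypes at 2347 members (87.9%), of which most were unmarked in both. Of the 823 members marked in either genotype, 500 (60.8%) had the same combination. H3K4me3 marked 569 members in both genotypes, 17 in KO alone and 8 in WT alone. The marks differed in how close their peaks lay to the limit. With a histone −log10 q of at least 10, H3K4me3 in KO went from 21.9% to 21% of members. H3K4me1 in KO went from 18.6% to 4.91%. The part of this in the counts of the 4 marks was not tested. H3K27ac marked 407 in both, 23 in KO alone and 41 in WT alone. H3K27me3 marked 241 in both, 47 in KO alone and 72 in WT alone. H3K4me1 marked 386 in both, 111 in KO alone and 46 in WT alone. Neither these counts nor the shares with the same combination were taken over all DLX1 peaks. The 111 against 46 for H3K4me1 can therefore not be read as particular to members. The totals that follow do not show how many peaks were marked in 1 genotype alone. In total, all DLX1 peaks with H3K4me1 numbered 4033 in KO and 4027 in WT, and those with H3K4me3 2833 and 2993. For H3K27ac they numbered 1749 in KO and 1783 in WT, and for H3K27me3 1170 and 1181. Many members marked in 1 genotype alone had a weaker listed peak in the other, among them 66 of the 111 with H3K4me1 in KO alone and 38 of the 41 with H3K27ac in WT alone, but 6 of the 17 with H3K4me3 in KO alone. Histone peaks past this limit covered more of the genome in KO for each mark, with 187 Mb in KO and 167 Mb in WT for H3K4me1 and 71.6 Mb in KO and 62.6 Mb in WT for H3K27me3, and the part of this in the counts was not tested.

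Recurrence of DLX1 went with the histone state of the site. Of the 755 members marked in WT, 67.2% had a DLX1 peak at e16.5 (interval 63.7 to 70.5%) and 33.6% at e11.5 (interval 30.3 to 37.1%). Of the 1915 unmarked members, 22.3% had one at e16.5 (interval 20.5 to 24.3%) and 1.15% at e11.5 (interval 0.721 to 1.73%). Unmarked members were not the weaker ones: their median fold was 5.46, against 4.41 at marked members. Of the unmarked members 1404 (73.3%) were in none of the 6 other lists, against 118 of the marked ones (15.6%). Among the shared peaks 77.3% of the 1575 unmarked had a DLX1 peak at e16.5 and 89.4% of the marked. At e11.5 the shares of shared peaks were 12.6% of the unmarked and 44.4% of the marked.

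By single mark, the shares found again were as follows. Of the 448 members with H3K27ac in WT, 80.8% held DLX1 at e16.5 (interval 76.8 to 84.3%) and 49.1% at e11.5 (interval 44.4 to 53.8%). Of the 577 members with H3K4me3 in WT, 76.1% held DLX1 at e16.5 (interval 72.4 to 79.5%) and 42.1% at e11.5 (interval 38 to 46.3%). Of the 432 with H3K4me1, 63.4% held DLX1 at e16.5 and 25.2% at e11.5, and of the 313 with H3K27me3, 73.5% held DLX1 at e16.5 and 46.0% at e11.5. Of the 279 with both H3K4me3 and H3K27me3, 78.9% held DLX1 at e16.5, 50.9% held DLX1 at e11.5 and 60.9% held DLX5 at e11.5. Of the 143 with H3K4me1 and no H3K4me3, 42% held DLX1 at e16.5, 6.29% held DLX1 at e11.5, and 49.7% held DLX2 at e16.5. Of the 1204 members with no listed histone peak in either genotype, 17.2% held DLX1 at e16.5, and none held DLX1, DLX2 or DLX5 at e11.5. A count of 0 allows up to 0.249% for each as 3 counts over the total, and 0.306% by the exact interval. Shared peaks held DLX1 more often in each of these groups. With H3K27ac in WT, 92% of them held it at e16.5 and 60.2% at e11.5. For H3K4me3 the shares were 90.4% and 53%, for H3K4me1 88.8% and 41.7%, and for H3K27me3 89.5% and 65.3%. They were 90.5% and 67.7% with both H3K4me3 and H3K27me3, and 88.3% and 32.7% with H3K4me1 and no H3K4me3. With no listed histone peak they were 56.9% and 0.583%.

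Very few members lay in regions that the authors' comparison of histone marks between genotypes called different. Members also lay less often than all DLX1 peaks in regions called common to both genotypes. For H3K4me3 these held 577 members (21.6%) and 3619 of all DLX1 peaks (42.8%). For H3K4me1 they held 360 of 2670 members and 4249 of 8459 DLX1 peaks. For H3K27ac the shares were 19.5% and 37%, and for H3K27me3 13.2% and 15.1%. The shares below are of all sites, in a region or not, so low shares do not by themselves show steadiness between genotypes. H3K4me1 was lower in KO at 14 members (0.524%, all DLX1 peaks 3.27%) and higher at 0 (all DLX1 peaks 0.0591%). H3K27ac was lower in KO at 0 members (all DLX1 peaks 1.31%) and higher at 0 (all DLX1 peaks 0.118%). A count of 0 among 2670 allows a share of up to 0.112%, taken as 3 counts over the total, and of up to 0.138% by the exact interval. H3K4me3 was lower in KO at 1 member (0.0375%, all DLX1 peaks 1.31%) and higher at 16 (0.599%, all DLX1 peaks 0.768%). H3K27me3 was lower in KO at 3 members (0.112%, all DLX1 peaks 0.508%), of which 2 are on chromosome X so that autosomes alone give 1 (0.0382%), and higher at 3 (0.112%, all DLX1 peaks 0.248%), of which 1 has no DLX2 or DLX5 peak within 500 bp (0.0386% of such members). Of the 111 DLX1 e13.5 peaks in regions with less H3K27ac in KO all were shared peaks, and of the 277 in regions with less H3K4me1 263 were.

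The directions of the regions were read from their names, in which WT stands first, and were checked against the peaks. In 77.6 to 97.6% of the regions of each mark and direction the stronger overlapping peak belonged to the genotype named as higher. The score of a region is the authors' log10 likelihood ratio. The member in the highest-scoring H3K4me1 region lower in KO, chr14:95513086-95513362 with a score of 8.37, had a DLX1 fold of 5.88 at e13.5 and 7.12 at e16.5, with DLX2 at 9.37 and DLX5 at 6.8 at e16.5. It had no listed H3K4me1 peak in KO and one of fold 2.5 in WT, below the limit for a mark. The member in the H3K4me3 region higher in KO, chr4:118993048-118993366 with a score of 6.48, had an H3K4me3 fold of 15.3 in KO and 11 in WT and DLX1 folds of 5.99, 9.86 and 9.89 at the 3 ages.

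The remaining 3 regions held members with DLX1 folds of 3.36 to 4.41 at e13.5. The H3K27me3 region lower in KO, with a score of 55.7, held chrX:148777041-148777240, which had no listed H3K27me3 peak in KO and a fold of 3.68 in WT, and an H3K4me3 fold of 7.34 in KO and 9.53 in WT. The sex of the embryos was not taken into account, and its part in a difference on chromosome X was not tested. The H3K27me3 region higher in KO, with a score of 8.04, held chr7:38980047-38980259, where the H3K27me3 fold was 3.59 in KO and 2.22 in WT and the nearest DLX2 or DLX5 peak was 476 bp away. The single member in an H3K4me3 region lower in KO, chr11:77748888-77749088 with a score of 3.77, had overlapping H3K4me3 peaks of fold 14.0 in KO and 13.8 in WT, so the peak over the site did not show the direction of the region. Its DLX1 peak was in none of the 6 other lists.

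Where a listed histone peak lay over a member in both genotypes, the fold enrichments were close. The median log2 ratio of KO over WT fold was −0.079 for H3K27ac at 836 members, against −0.087 at all DLX1 e13.5 peaks. It was 0.003 for H3K4me1 at 740 members, against −0.004 at all DLX1 peaks, and −0.105 for H3K27me3 at 613 members, against −0.092. For H3K4me3 it was 0.089 at 719 members, against 0.002 at all DLX1 peaks, and the median H3K4me3 fold at these members was 12.4 in KO and 11.7 in WT, against 4.75 in KO and 4.88 in WT over all DLX1 peaks. The quartiles over members were −0.063 and 0.179 for H3K4me3 and −0.192 and 0.033 for H3K27ac. These ratios compare 1 library with 1 library, so a shift of all peaks of a library cannot be told apart from a shift at the sites.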

How the data were processed

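The series held 33 samples of mouse ganglionic eminence, of which 9 DLX peak lists, 8 histone peak lists with their WT against KO regions, and 1 RNA table were used. The submitters' processing notes name Trim Galore, BWA 0.7.16a, SAMtools, MACS2, deepTools, STAR 2.4.2a and bcl2fastq with build mm9. Settings were not known. The peak lists deposited by the authors give a fold enrichment (a ratio over input), a −log10 p and a −log10 q per peak and a display score. Peak names carry an unexplained tag, and merging of libraries before peak calling cannot be seen from the files. The regions' score, a log10 likelihood ratio, is the authors' too, per the file headers. The RNA table holds raw read counts, with the authors' deposited log2 fold changes and p-values, which were not used.

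Peaks on chromosomes 1 to 19 and X were kept, and 682 further summit lines of the same intervals and 62 lines on other sequences were dropped from the DLX1 e13.5 list. Overlap means 1 bp or more. The fold at a site is that of the strongest overlapping peak. A site with a histone peak of −log10 q of at least 5 is marked. CPM are counts scaled to a common library total of 1e6. The overlap code was tested on simulated intervals with known answers. Python 3.11.15, numpy 2.4.6, pandas 2.3.3 and scipy 1.17.1 were used. Named sites are the 5 strongest members by −log10 q, the 3 strongest found in all 6 other lists, and per mark and direction the member in the authors' region of highest score, all outside chromosome 18. The members, lists and limits were chosen with earlier results of these data known. Alternatives varied the overlap, the q limits, the members and the chromosomes. No sequence is printed, because no genome of build mm9 was used here. One marker gene of the eminence list is not reported here.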

Additional observations from a re-analysis of the deposited data

How the results depend on the processing

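No paired analysis was possible because no result comes from a test: the ChIP values are from single libraries, and the RNA levels are given per library and as means. Of 137 alternatives over 27 results, 95 lay within the interval of the value in the report (for counts, within 1.5 times; for median log2 ratios, within 0.5 of the interquartile range over sites), 42 did not, and no median log2 ratio changed sign. The number of sites held within 1.5 times under each of its 3 alternatives. With the DLX1-only sites limited to a DLX1 −log10 q of at least 5, the shares found in the other lists were 6.96% for DLX1 e11.5, 30.2% for DLX1 e16.5, 2.51% for DLX2 e11.5, 15.9% for DLX2 e16.5, 6.86% for DLX5 e11.5 and 17.3% for DLX5 e16.5. The marked shares were then 9.09% in KO and 9.38% in WT for H3K27ac, 12.9% in KO and 11% in WT for H3K4me1, 13.0% in KO and 12.5% in WT for H3K4me3, and 6.62% in KO and 7.06% in WT for H3K27me3, and 0.242% lay in regions with H3K4me3 higher in KO. With the other lists limited to that q, the shares were 6.78% for DLX1 e11.5, 30.7% for DLX1 e16.5, 1.39% for DLX2 e11.5, 21.9% for DLX2 e16.5, 5.17% for DLX5 e11.5 and 20.4% for DLX5 e16.5. With 50% of the site covered, they were 3.45% for DLX2 e11.5, 9.33% for DLX5 e11.5 and 23.7% for DLX5 e16.5, and H3K27me3 was at 9.33% in KO and 10.0% in WT. With all listed histone peaks counted, the shares were 37.3% in KO and 34.9% in WT for H3K27ac, 31.8% in KO and 31.1% in WT for H3K4me1, 29.6% in KO and 29.0% in WT for H3K4me3, and 28.4% in KO and 25.1% in WT for H3K27me3. With a histone −log10 q of at least 10, they were 7.0% in KO and 8.5% in WT for H3K27ac, 4.91% in KO and 3.3% in WT for H3K4me1, and 2.36% in KO and 2.32% in WT for H3K27me3, while H3K4me3 stayed within its intervals. With regions of a log10 likelihood ratio of at least 5, H3K4me3 was lower in KO at 0% and higher at 0.112% of the sites. Alternatives that change the overlap, or a limit on listed peaks or regions, count fewer or more by construction. Limiting the members changes both the sites found and the total. The members it drops were often in the DLX2 e16.5 list, at 62.5% up to a −log10 q of 3 and 50.6% from 3 to 5. They lay under a WT mark at 70.5% and 59.1%. Any other cause was not tested. Leaving out chromosome X, or sites with a DLX2 or DLX5 peak within 500 bp, moved no share beyond its interval, but cut the H3K27me3 counts of 3: lower in KO was 0.0382% (1 site) on autosomes alone, and higher in KO was 0.0386% (1 site) without the near sites. A library of unknown depth limits all shares, since a list's length sets how many sites can be found in it.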
